A study of Mus musculus with 5 samples.

Results

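The transcripts of 9 mouse genes of butyrate oxidation and ketogenesis were followed along the intestine: Slc16a1, Acsm3, Acads, Acadm, Hadh, Bdh1, Cpt1a, Ppara and Pdk4. They were chosen by name, and each symbol was found once among the 32285 genes counted. The data are single-cell RNA libraries made on the 10x Genomics droplet platform from duodenum, jejunum, ileum, colon and rectum, with 1 library per segment. Before capture, cells that took up propidium iodide, and were thus dead, had been sorted away. The labels name epithelial, mesenchymal and immune cells and give no genotype, treatment, strain, age or number of animals, so the 5 libraries differ, as far as the labels go, in segment alone. Duodenum, jejunum and ileum are the small intestine, and colon and rectum the large intestine. All values by segment run from duodenum to rectum.

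Butyrate is a short-chain fatty acid that bacteria of the large intestine make from fibre, and it is a main fuel of the colonic epithelium. It enters the cell through monocarboxylate transporters, is joined to coenzyme A, and is shortened in the mitochondrion to acetyl-CoA, which can be burned or turned into ketone bodies. Long-chain fatty acids reach the same pathway by the carnitine shuttle, and the nuclear receptor PPAR alpha switches on many of these genes.

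The libraries held 2884 to 4355 barcodes and 41953568 to 65546664 UMIs (unique molecular identifiers, counted transcripts), and 11922 of 16535 barcodes were kept as cells. Clusters formed without the 9 genes and without the pathway genes described later were named from marker genes, so the members did not shape the classes. Absorptive cells numbered 486, 581, 536, 265 and 58, crypt cells (stem and dividing cells and their early progeny) 508, 168, 209, 427 and 474, and goblet cells, which secrete mucus, 47, 36, 269, 409 and 244. Most classes of colon and rectum were clusters of a single library, whereas duodenum and jejunum shared theirs. The 58 rectal absorptive cells stand apart: their median depth was 5288 UMIs, against 16627 to 35621 in the absorptive cells of the other segments. Their summed goblet markers reached 743 CPM and their B cell markers 89.5 CPM, against 55.7 to 383 and 3.97 to 13.2 in the other absorptive sums. Levels are CPM, the UMIs of a gene scaled by the total of the UMIs summed over a class of a library, with exact Poisson 95% intervals that cover counting error only. CPM of 3' tags are compared within a gene, not between genes.

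B cells of the same libraries served as a reference level, with 432 to 1281 cells per library. How much of that level was free RNA and how much the B cells' own transcripts was not tested. Of the 135 levels (9 genes, 3 epithelial classes, 5 libraries), 127 had an interval above that of the B cells of their library. The 8 others were low levels of Acsm3 in duodenum and jejunum, and of Pdk4 and Ppara in rectum. The plot of levels by segment shows these values together.

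**Figure D1:**
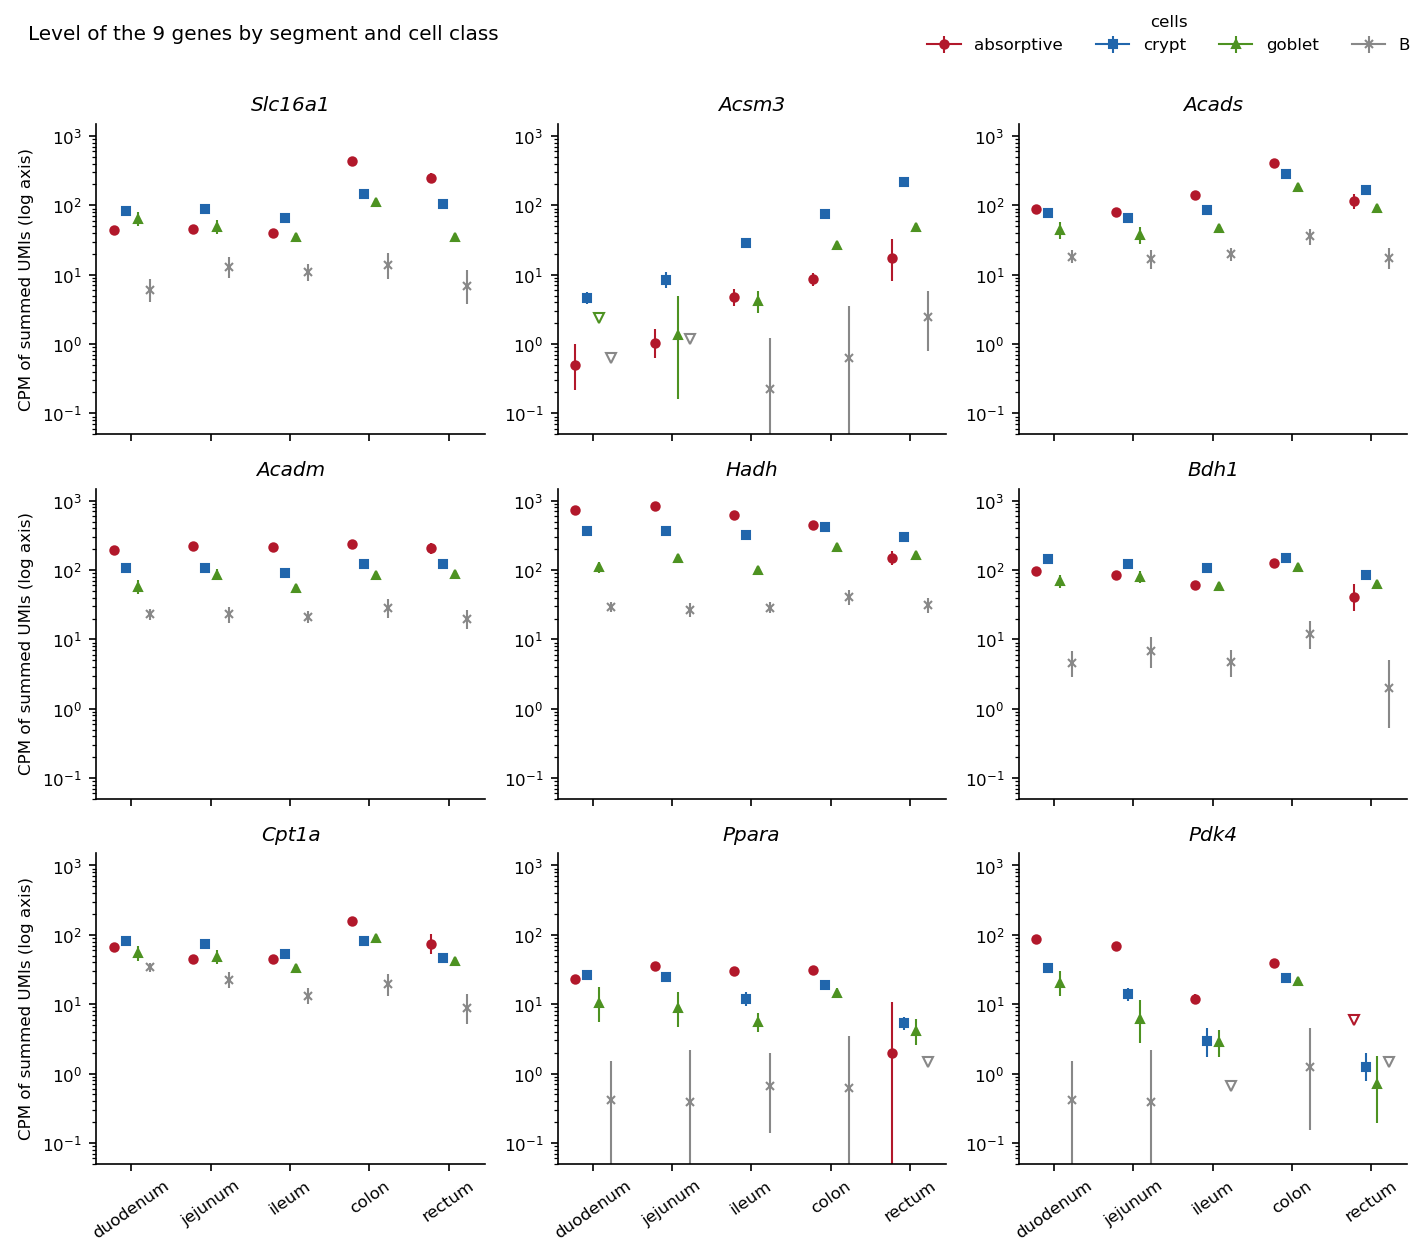
CPM of summed UMIs (log axis) of each of the 9 genes in the 5 libraries, with exact Poisson 95% intervals, in absorptive, crypt, goblet and B cells; an open triangle marks a count of 0, drawn at the level that 3 counts would give. Slc16a1 in absorptive cells steps up from at most 46.2 in the small intestine to 435 in colon and 249 in rectum, and Acsm3 in crypt cells climbs from 4.63 in duodenum to 219 in rectum.

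Slc16a1 (ENSMUSG00000032902, chr3:104638664-104658462 of GRCm38.p6) encodes MCT1, the transporter that carries butyrate, lactate and ketone bodies across the membrane together with a proton. In absorptive cells it stood at 44.4, 46.2, 39.4, 435 (422 to 449) and 249 CPM (208 to 296). Both large intestinal libraries lay above all 3 small intestinal ones, and the gap between rectum and jejunum was 5.40-fold. With 1 library per segment there is no test between segments, so a gene was called where the lowest library of one side exceeded the highest of the other at least 2-fold with at least 50 UMIs in the class. By this rule Slc16a1 was the 1 member of 9 called higher in large intestinal absorptive cells, where 7.81% of 10979 genes were called higher, and no member was called lower, where 4.85% were. The balance over all genes depended on the cells and the minimum: 857 were called higher and 532 lower, against 547 and 954 with every deposited barcode kept and 411 and 532 with at least 200 UMIs in the class. The median difference of large over small intestine (log2, means of the libraries) was 0.07 over the members and 0.16 over all genes in absorptive cells, 0.0089 and -0.09 in crypt cells, and 0.42 and 0.21 in goblet cells. The call held in all 18 alternatives in which it could be made, with log2 gaps from 1.36 to 3.24. With cells limited to at most 10% mitochondrial UMIs, no colonic or rectal absorptive class was large enough to be used. The call was therefore not tested under that filter.

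In crypt cells Slc16a1 stood at 84.2, 88.4, 66.2, 145 and 105 CPM. Colon and rectum were again highest, yet the gap of rectum over jejunum was only 1.19-fold. In goblet cells it was 64.2, 49.3, 35.5, 112 and 34.9 CPM, so rectum lay with ileum, their intervals overlapped, and the sides were not separated. The transporter thus ran in opposite orders within the epithelium: absorptive cells had 0.528, 0.522 and 0.595 times the crypt level in the 3 small intestinal libraries, and 3.0 and 2.37 times in colon and rectum. This change of the class difference with side was the 1 member of 9 called by a test of the interaction (edgeR, log2 1.99 ± 0.30 SE, adjusted p = 0.0261), where 4.53% of 11689 genes were called, 1.63% higher and 2.90% lower. It held in 14 of 16 alternatives and was lost without duodenum (adjusted p = 0.0962) and without jejunum (adjusted p = 0.0753), 2 fits in which only 18 and 12 genes of all tested were called.

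At equal depth, the shares of absorptive cells with a Slc16a1 UMI were also highest in colon and rectum. The rectal share rests on only 51 cells. After each cell was thinned to 1000 UMIs, 35.1% of 259 colonic absorptive cells and 13.7% of 51 rectal ones had a UMI, against 4.94%, 4.58% and 2.63% in the small intestine and 0.380% to 0.962% of B cells. Without thinning the shares were 68.3%, 66.6%, 43.8%, 95.5% and 62.1%, at median depths of 35621, 33157, 16627, 32456 and 5288 UMIs. The 2 clusters of colonic goblet cells, clustered without the gene, differed: 278 cells had 136 CPM and 131 cells, led by Ccn3 and Plet1, had 22.6 CPM.

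The 250 bases before the start that the table gives for Slc16a1 are shown with those of Acsm3, since these are the genes that met the rule of size, and with those of Acadm and Cpt1a, the members whose window holds AGGTCA, the half-site of nuclear receptors such as the PPAR and RXR pair; its letters are in capitals, also where they are read on the other strand. The sequences are from RefSeq on GRCm38.p6, 5' to 3' on the strand of the gene: Slc16a1 at chr3:104638414-104638663 (+), Acsm3 at chr7:119760673-119760922 (+), Acadm at chr3:153944644-153944893 (-) and Cpt1a at chr19:3323051-3323300 (+).
Slc16a1: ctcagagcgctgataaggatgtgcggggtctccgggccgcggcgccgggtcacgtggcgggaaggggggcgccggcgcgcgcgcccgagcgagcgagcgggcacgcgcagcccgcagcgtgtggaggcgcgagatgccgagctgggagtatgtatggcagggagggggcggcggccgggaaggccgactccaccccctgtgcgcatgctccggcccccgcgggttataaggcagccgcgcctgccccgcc
Acsm3: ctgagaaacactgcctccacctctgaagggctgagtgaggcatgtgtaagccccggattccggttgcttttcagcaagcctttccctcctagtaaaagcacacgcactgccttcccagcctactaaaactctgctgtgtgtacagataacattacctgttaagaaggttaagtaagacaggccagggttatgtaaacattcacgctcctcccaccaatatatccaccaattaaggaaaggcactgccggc
Acadm: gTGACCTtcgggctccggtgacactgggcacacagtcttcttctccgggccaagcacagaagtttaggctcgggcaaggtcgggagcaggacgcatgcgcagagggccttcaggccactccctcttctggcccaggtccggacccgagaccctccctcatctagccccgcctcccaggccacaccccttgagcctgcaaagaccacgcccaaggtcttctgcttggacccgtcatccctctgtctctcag
Cpt1a: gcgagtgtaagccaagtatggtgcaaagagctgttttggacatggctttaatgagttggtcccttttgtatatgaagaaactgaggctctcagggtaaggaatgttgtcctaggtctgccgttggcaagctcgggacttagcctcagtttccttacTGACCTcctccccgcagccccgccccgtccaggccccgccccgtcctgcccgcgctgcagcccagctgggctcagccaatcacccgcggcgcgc
All 9 members matched the table, in 10 windows since Bdh1 has 2 starts. The half-site lies at the far end of the Acadm window and 94 bases before the start used for the Cpt1a window. That start lies inside the gene span given for Cpt1a, and the Acsm3 window reaches past the first base of its gene span. The half-site is held on either strand by 14.0% of all 32851 windows of this length. Neither the direct repeat with 1 base between, which PPARs bind, nor TCAAGGTCA, the extended site of estrogen-related receptors, was found in the members' windows, and 0.338% and 0.387% of all windows hold them. A GC box (GGGCGG, either strand) was found in the windows of Slc16a1, Acads, Hadh, Cpt1a and Ppara, and in 32.7% of all windows. The window of Slc16a1 had 76.4% G and C and that of Acsm3 49.2%, against a median of 52.4% over all windows. These matches describe the letters only.

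Acsm3 (ENSMUSG00000030935, chr7:119760883-119784896) encodes a mitochondrial acyl-CoA synthetase that joins butyrate and medium-chain acids to coenzyme A. It was higher in crypt than in absorptive and goblet cells of each library. Its crypt level was 4.63, 8.49, 28.6, 74.9 (70.4 to 79.6) and 219 CPM (211 to 226), higher in each segment than in the one before it, with no overlap between neighbouring intervals. The crypt classes also differed in markers between segments: their summed stem cell markers were 2093, 2574, 5201, 646 and 268 CPM and their goblet markers 212, 283, 349, 321 and 1103 CPM, and the part of these in the result was not tested. The gap of colon over ileum was 2.62-fold, and Acsm3 was the 1 member called higher in large intestinal crypt cells, where 3.80% of 12396 genes were called higher and 2.70% lower; no member was called lower. The call held in 17 of 19 alternatives. It was lost with every deposited barcode kept, where the log2 gap was 0.95, and at a gap of 4-fold.

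The segments stood in the same order in goblet cells, where the intervals of the first 3 overlapped. Acsm3 had no UMI among 1246774 in duodenum (3 counts would be 2.41 CPM), 1.35 CPM in jejunum, 4.15 in ileum, 27.1 in colon and 49.3 in rectum. The gap of colon over ileum was 6.53-fold. It was the 1 member called higher in large intestinal goblet cells, where 2.73% of 11432 genes were called higher and 2.29% lower, and no member was called lower. In absorptive cells Acsm3 was at 0.501, 1.05, 4.77, 8.59 and 17.5 CPM, and the gap of colon over ileum, 1.80-fold, fell short of the rule, although 5 of 18 alternatives called it. The duodenal and rectal levels rest on 8 and 9 UMIs, and their intervals overlapped those of jejunum and colon. The colonic and rectal levels depended on which cells were taken as absorptive. With every deposited barcode kept, colon had 1.87 CPM (1.02 to 3.13), below ileum at 5.02 (3.92 to 6.33), so the sides were not separated. The rectal level was 74.4 CPM without doublet removal, 125 with each library clustered on its own and 172 at a clustering resolution of 2.0.

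Absorptive cells had 0.0801 to 0.167 times the crypt level of Acsm3 in the 5 libraries. The edgeR test with library as a block gave a log2 difference of -2.63 ± 0.22 SE (adjusted p = 0.000172), lower in 5 of 5 libraries. The call held in all 18 alternatives, with log2 differences from -3.48 to -1.75 (adjusted p up to 0.0382), but at resolution 2.0 the rectal levels were 172 CPM (161 to 184) in absorptive and 180 (174 to 187) in crypt cells, whose intervals overlap. After thinning to 1000 UMIs, 16.4% of 463 rectal crypt cells had an Acsm3 UMI, against 3.92% of 51 rectal absorptive cells and 0.383% of 522 rectal B cells. Without thinning these shares were 88.4%, 10.3% and 0.935%, at median depths of 33630, 5288 and 3401 UMIs. Within the small intestinal crypt, both clusters carried dividing markers; the one led by Olfm4 and other stem cell genes had 8.17, 12.9 and 34.3 CPM in duodenum, jejunum and ileum, and the one led by Dmbt1 had 2.31, 4.34 and 13.5. The stem-led cluster was the higher in all 3 libraries. In colonic goblet cells Acsm3 was 33.5 CPM in the larger cluster and 3.37 in the one led by Ccn3 and Plet1.

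Acads (ENSMUSG00000029545, chr5:115110299-115119346), the short-chain acyl-CoA dehydrogenase that takes the first oxidation step on butyryl-CoA, was highest in colon in every class. Absorptive cells had 89.7, 79.9, 139, 414 (401 to 428) and 115 CPM (87.4 to 148). Colon stood 2.99-fold above the next segment, ileum, whereas rectum overlapped both ileum and duodenum. Crypt cells had 76.3, 64.8, 84.9, 282 and 169 CPM, and goblet cells 44.1, 37.2, 46.8, 183 and 92.2. In both classes colon and rectum lay above all small intestinal libraries, by 1.99-fold and 1.97-fold at the closest pair, just under the rule's 2-fold.

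Without the rectal library, Acads was called higher in large intestine in all 3 classes, with log2 gaps of 1.58, 1.73 and 1.97. Cpt1a joined Slc16a1 and Acads in absorptive cells, so that 3 of 9 members were called higher there against 9.88% of all genes, 2 of 9 in crypt cells against 5.09% and 2 of 9 in goblet cells against 6.73%. No member was called lower, where 10.3%, 4.08% and 3.20% of genes were. Without the colonic library, Acsm3 joined Slc16a1 as higher in absorptive cells, while Hadh, Ppara and Pdk4 were called lower there, Ppara and Pdk4 in crypt cells and Pdk4 in goblet cells. Then 2 of 9 members were higher and 3 lower in absorptive cells, where 18.4% and 10.8% of genes were called; 1 was higher and 2 lower in crypt cells, where 7.74% and 6.67% were; and 1 was higher and 1 lower in goblet cells, where 5.60% and 4.45% were. Colon and rectum thus did not carry the same pattern, and the choice of large intestinal library decided which members apart from Slc16a1 in absorptive cells and Acsm3 in crypt and goblet cells were called.

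The rectal absorptive class also moved with the choice of cells. It held 55 to 663 cells in the settings that gave it at least 20. Slc16a1 ranged from 106 to 328 CPM over them, and stayed above every small intestinal absorptive level of the same setting. Acsm3 ranged from 16.7 to 172 CPM and Hadh from 77.2 to 319.

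**Figure D2:**
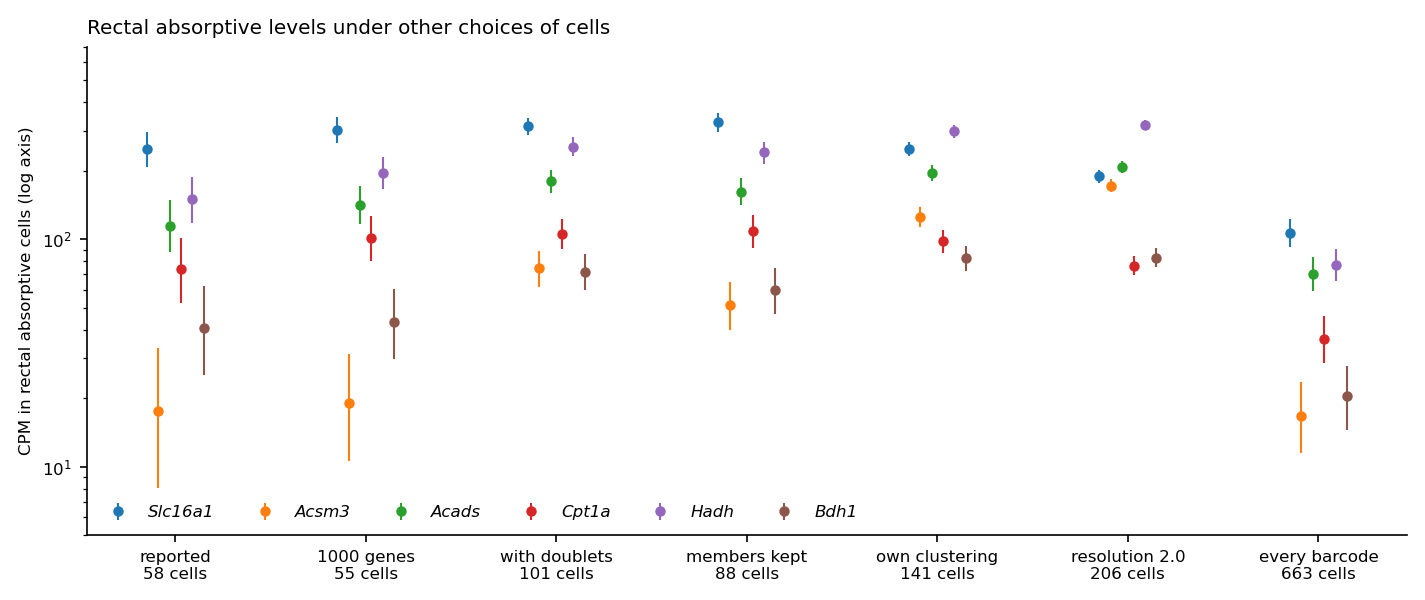
CPM (log axis) of 6 members in rectal absorptive cells under 7 choices of cells, with exact Poisson 95% intervals and the number of cells under each. Slc16a1 stays between 106 and 328, whereas Acsm3 runs from 16.7 with every barcode kept to 172 at resolution 2.0.

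Acadm (ENSMUSG00000062908, chr3:153922353-153944643), the medium-chain acyl-CoA dehydrogenase, hardly varied along the intestine and differed by class. Absorptive cells had 197, 226, 215, 240 and 206 CPM, crypt cells 106, 106, 90.6, 121 and 121, and goblet cells 57.7, 85.8, 55.3, 85.7 and 88.1. All 5 absorptive levels exceeded all 5 crypt levels. The log2 difference of absorptive over crypt cells was 1.44 ± 0.18 (edgeR, adjusted p = 0.000683), and that of goblet over absorptive cells -1.84 ± 0.18 (edgeR, adjusted p = 0.000561). Each held in all 18 alternatives.

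Hadh (ENSMUSG00000027984, chr3:131233419-131272101), the hydroxyacyl-CoA dehydrogenase of short and medium chains, was at 733, 834 and 620 CPM in absorptive cells of the small intestine, 451 in colon and 150 in rectum. Both large intestinal libraries lay below the other three, by less than the rule's 2-fold. The crypt cells had 364, 371, 325, 421 and 299 CPM, without such an order. Absorptive cells had 2.02, 2.25 and 1.91 times the crypt level in the small intestine, but 1.07 in colon and 0.502 in rectum. The interaction with side was not called (edgeR, log2 -1.76 ± 0.48, adjusted p = 0.0833), and 8 of 16 alternatives called it, among them without colon (-2.55, adjusted p = 0.0186). Absorptive cells were not called above crypt cells (edgeR, 0.92 ± 0.42, adjusted p = 0.0953), and were without rectum (1.27, adjusted p = 0.00550). Goblet cells had 109, 150, 101, 215 and 167 CPM, called lower than absorptive cells (edgeR, -2.07 ± 0.49, adjusted p = 0.0128); the call was lost without ileum (adjusted p = 0.0542), and rectum was the 1 library of 5 with the goblet level above the absorptive one.

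Bdh1 (ENSMUSG00000046598, chr16:31422297-31458901) interconverts acetoacetate and 3-hydroxybutyrate, the 2 main ketone bodies. It was not called in the comparisons of classes or of sides. Absorptive cells had 95.8, 85.5, 60.1, 127 and 40.9 CPM, crypt cells 143, 122, 107, 147 and 85.8, and goblet cells 69.8, 79.7, 58.5, 109 and 62.5. Colon was highest in each class, but duodenum overlapped it in crypt cells. The class differences were not called (edgeR, absorptive over crypt -0.17 ± 0.20, adjusted p = 0.487; goblet over absorptive -0.33 ± 0.21, adjusted p = 0.238), although crypt CPM exceeded absorptive CPM in 5 of 5 libraries.

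Cpt1a (ENSMUSG00000024900, chr19:3322326-3385735), the outer-membrane carnitine palmitoyltransferase that admits long-chain acids to the mitochondrion, was 67.3, 45.4, 45.6, 158 (150 to 166) and 73.9 CPM (52.3 to 102) in absorptive cells. Colon stood alone, and rectum overlapped duodenum. Crypt cells had 81.5, 74.7, 53.8, 81.1 and 46.2 CPM, and goblet cells 54.5, 48.7, 33.1, 90.7 and 42.5. As for Slc16a1, absorptive CPM lay below crypt CPM in all 3 small intestinal libraries (0.826, 0.608 and 0.848 times). It lay above crypt CPM in colon (1.95) and rectum (1.60). These ratios use UMI totals without TMM factors. On that scale the median log2 difference of absorptive over crypt cells was -0.41 over all genes, against 0.04 with TMM factors. The part of scaling in the ratios of Cpt1a was not tested. The interaction was not called (edgeR, log2 0.96 ± 0.29, adjusted p = 0.112), and 7 of 16 alternatives called it. Goblet cells were called lower than absorptive cells (edgeR, -0.72 ± 0.19, adjusted p = 0.0186), a call lost in 6 of 18 alternatives, among them without ileum (adjusted p = 0.0566).

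Ppara (ENSMUSG00000022383, chr15:85734910-85806851) encodes PPAR alpha, and Pdk4 (ENSMUSG00000019577, chr6:5483351-5496278) a kinase that shuts off pyruvate dehydrogenase and so spares glucose when fat is burned. Ppara was 22.7, 35.1, 30.1 and 31.1 CPM in absorptive cells of duodenum, jejunum, ileum and colon, and a single UMI (1.95 CPM, 0.0493 to 10.8) in rectum. Its crypt levels were 26.7, 24.7, 12.0, 19.2 and 5.29 CPM, and its goblet levels 10.4, 8.79, 5.49, 14.7 and 4.04. Rectum was lowest in every class, although in goblet cells its interval overlapped that of ileum. The rectal absorptive sum was the shallowest, and the part of depth in these low values was not tested.

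Pdk4 was more uneven. Absorptive cells had 85.8, 69.4, 12.0 and 39.0 CPM and no UMI among 513893 in rectum, where 3 counts would be 5.84 CPM. Crypt cells had 33.3, 13.9, 2.92, 23.7 and 1.26 CPM, and goblet cells 20.1, 6.08, 2.81, 21.3 and 0.702. Ileum and rectum were the 2 lowest libraries in each class, so the order did not follow the division into small and large intestine. In goblet cells the low values rest on 9 UMIs in jejunum, 21 in ileum and 4 in rectum, and the intervals of jejunum and ileum overlapped. The intervals of ileum and rectum overlapped in crypt and goblet cells. In each class the rectal interval was not above that of B cells. In the small intestinal crypt the stem-led cluster had 13.5, 5.83 and 2.33 CPM and the Dmbt1-led cluster 46.3, 21.4 and 4.49, opposite to Acsm3. The ileal values of Pdk4 in these clusters rest on 11 and 8 UMIs.

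The comparison of absorptive with crypt cells asked which members differ between mature and dividing epithelium of the same library, with the 5 libraries as replicates. Of the 9 members, Acadm, Pdk4 (log2 2.0 ± 0.37, adjusted p = 0.00343) and Ppara (0.95 ± 0.30, adjusted p = 0.0302) were higher in absorptive cells and Acsm3 lower by the edgeR test, where 57.6% of 11689 genes were called, 29.4% higher and 28.3% lower. Acads narrowly missed the threshold (0.71 ± 0.26, adjusted p = 0.0505) and Slc16a1 did not come near it (0.46 ± 0.41, adjusted p = 0.369). The median of the members was 0.71, and that of all genes tested 0.04. In duodenum the absorptive CPM of Ppara was 0.849 times that of crypt cells. Ppara lost its call without jejunum (adjusted p = 0.170), ileum (0.113) or colon (0.0700), and without the library block both Ppara (adjusted p = 0.141) and Pdk4 (0.117) did. The scaling bears on this comparison: with the UMI totals alone in place of TMM factors, the median of all genes moved to -0.41, 2080 genes were called higher and 4890 lower in place of 3433 and 3304, Ppara lost its call (0.47, adjusted p = 0.199) and Bdh1 was called lower (-0.60, adjusted p = 0.0143), while Acadm (1.02), Pdk4 (1.51) and Acsm3 (-3.04) were called in both.

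Goblet cells were compared with absorptive cells in the same way. Here 6 of 9 members were lower in goblet cells and none higher, where 45.2% of 11221 genes were called, 22.2% higher and 23.0% lower. The 6 were Acads (-1.32 ± 0.23, adjusted p = 0.00366), Acadm, Hadh, Cpt1a, Ppara (-1.74 ± 0.37, adjusted p = 0.00870) and Pdk4 (-2.24 ± 0.43, adjusted p = 0.00575), all by edgeR. Without the library block, Acads (adjusted p = 0.0710), Pdk4 (0.0740) and Cpt1a (0.105) lost their calls. Slc16a1 was not called (-1.11 ± 0.54, adjusted p = 0.129): goblet cells had 1.44, 1.07 and 0.901 times the absorptive level in the small intestine, and 0.257 and 0.140 times in colon and rectum. The median of the members was -1.32, against 0.01 over all genes. Summed goblet markers made up 146106 to 184519 CPM of the small intestinal goblet sums and 53678 and 56433 of the large intestinal ones; their part in these differences was not tested. With totals in place of TMM factors the median of all genes was 0.27 and Cpt1a lost its call (-0.47, adjusted p = 0.0847).

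**Figure D3:**
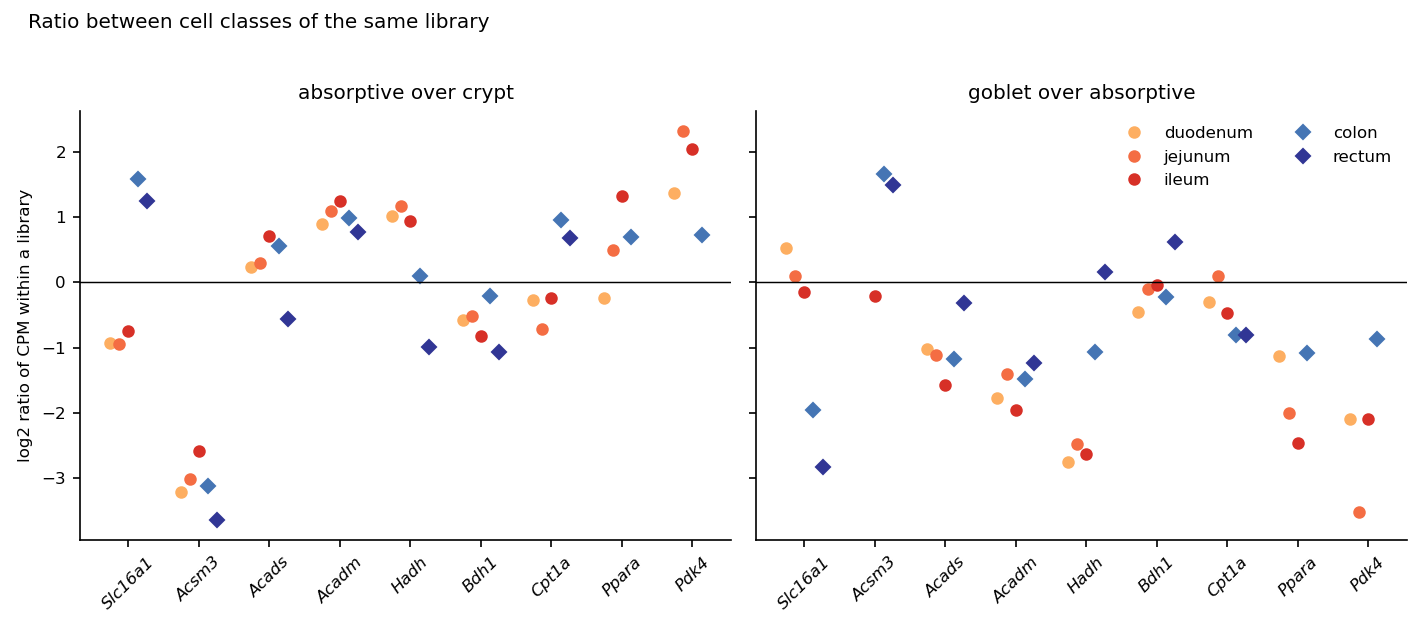
log2 ratio of CPM between 2 cell classes of the same library for each member, absorptive over crypt on the left and goblet over absorptive on the right; circles are the 3 small and diamonds the 2 large intestinal libraries, and ratios with 3 or fewer UMIs in a class are left out. Slc16a1 lies below 0 in the small and above 0 in the large intestine on the left, and Acsm3 lies below 0 in all 5 libraries.

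**Figure D4:**
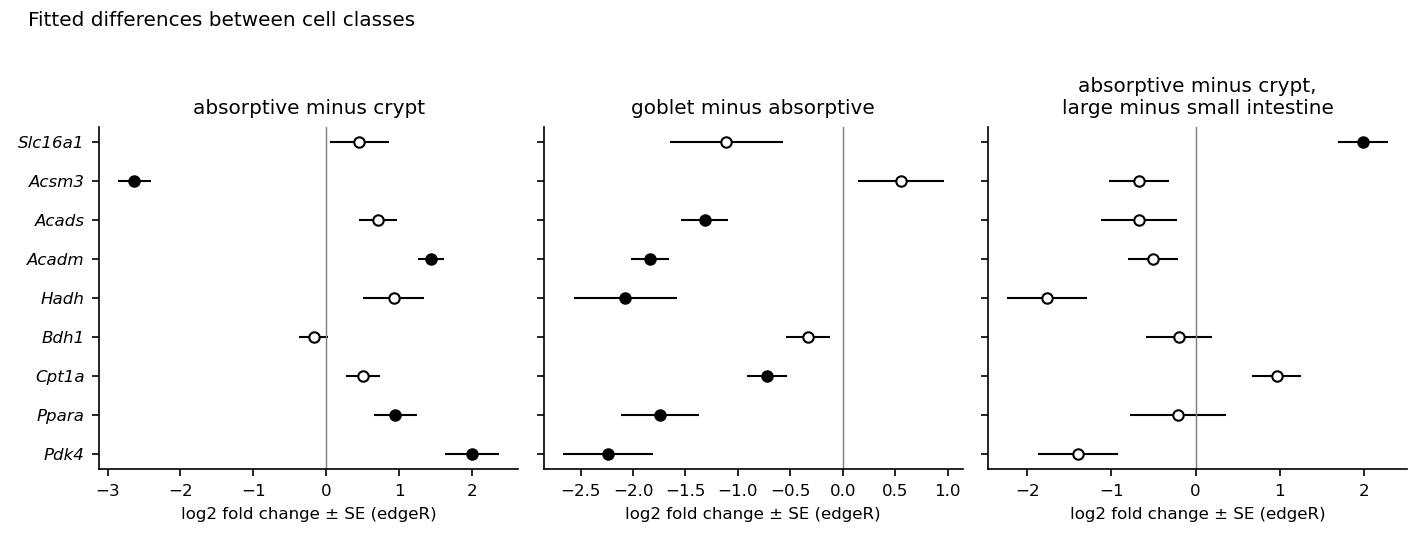
Fitted log2 differences with standard errors (edgeR, 5 libraries, library as a block) of the 9 members between classes and, on the right, of that difference between large and small intestine; filled points have an adjusted p under 0.05. Acsm3 is lower and Acadm, Ppara and Pdk4 higher in absorptive than in crypt cells, 6 members are lower in goblet cells, and Slc16a1 alone passes on the right.

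Other genes of the pathway were taken from 7 lists with 70 genes. Their counts are read against all genes tested: 29.4% were higher and 28.3% lower in absorptive than in crypt cells, and 22.2% higher and 23.0% lower in goblet than in absorptive cells. Among transporters and receptors of short-chain acids, 3 of 5 tested were higher in absorptive than in crypt cells: Slc26a3, the apical chloride and bicarbonate exchanger, Bsg, the chaperone of MCT1, and Slc16a3, the lactate exporter MCT4. Bsg was 959, 967, 875, 1566 and 778 CPM in absorptive cells, so it did not follow the 5.40-fold gap of its partner Slc16a1. Slc5a8, a sodium-coupled transporter of butyrate, was 0.313, 22.6, 158, 114 and 107 CPM in absorptive cells and 0, 0.596, 2.46, 84.9 and 272 in crypt cells. It was called higher in large intestinal crypt and goblet cells, and its class difference moved with side opposite to that of Slc16a1 (edgeR, log2 -6.38 ± 0.78, adjusted p = 0.0177), a fitted value that rests on crypt levels at or near 0 in the small intestine. The call was lost without duodenum (adjusted p = 0.0521) and without jejunum (0.0549). Ffar2, a receptor of short-chain acids, was at 28.9, 31.8, 49.5, 82.5 and 26.9 CPM in goblet cells and at most 0.781 in absorptive cells, higher in goblet cells by 7.41 ± 0.43 (edgeR, adjusted p = 0.000170).

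Acyl-CoA synthesis beside Acsm3 was thinly covered. Of 7 genes 2 were tested, and Acss2, which activates acetate, was lower in absorptive than in crypt cells (edgeR, -0.98 ± 0.29, adjusted p = 0.0234), a call lost without ileum (adjusted p = 0.0713) or colon (0.0520). It was also called higher in large intestinal goblet cells, at 12.8, 15.5, 14.9, 56.2 and 66.2 CPM.

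Of the 13 other genes of beta-oxidation, 7 were higher in absorptive than in crypt cells and none lower (29.4% and 28.3% of all genes), with a median of 0.71 over the list against 0.04 over all genes. They were Acadl, Acadvl, Hadha, Hadhb, Etfb, Etfdh and Decr1, and Acadvl, the very-long-chain dehydrogenase, was higher by 1.12 ± 0.21 (edgeR, adjusted p = 0.00346). In goblet cells 8 of 13 were lower than in absorptive cells and none higher (23.0% and 22.2% of all genes). Along the intestine 1 of 13 met the rule, Acadsb, higher in large intestinal absorptive cells as were 7.81% of all genes, at 5.52, 5.49, 4.24, 12.8 and 17.5 CPM, against 3.55 to 7.86 CPM in B cells.

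All 5 tested genes of the carnitine shuttle were higher in absorptive than in crypt cells (Cpt1b, Cpt2, Slc25a20, Crat and Slc22a5), with a median of 1.76 and against 29.4% of all genes, and all 5 were lower in goblet cells, against 23.0%. Cpt1a, which opens the same shuttle, was not called (edgeR, 0.51 ± 0.23, adjusted p = 0.0969). Slc25a20, the carnitine carrier of the inner membrane, was 78.6, 84.5, 90.0, 224 and 235 CPM in absorptive cells and called higher in large intestine there, while Slc22a5, which brings carnitine into the cell, was called lower at 20.6, 31.9, 24.6, 7.92 and 3.89, the last from 2 UMIs. For Crat, the carnitine acetyltransferase, the class difference was smaller in large intestine (edgeR, log2 -1.46 ± 0.26, adjusted p = 0.0368), a call lost without duodenum (adjusted p = 0.126), jejunum (0.145) or rectum (0.0578).

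Of the other genes of ketone body use, Oxct1, which activates acetoacetate, Acat1 and Aacs were not called between absorptive and crypt cells, and Aacs was higher in goblet than in absorptive cells (edgeR, 1.82 ± 0.54, adjusted p = 0.0286), a call lost without duodenum (adjusted p = 0.0767), jejunum (0.0861) or ileum (0.0668). Slc16a6, a transporter of ketone bodies, was called lower in large intestinal crypt cells, at 19.2, 17.7, 11.2, 5.10 and 4.28 CPM, and B cells had 55.2 to 120 CPM of it.

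Among regulators and targets of PPARs, 10 of 15 tested were higher in absorptive than in crypt cells and none lower (29.4% and 28.3% of all genes), with a median of 1.67, and 11 of 15 were lower in goblet than in absorptive cells (23.0% of all genes). The coactivator Ppargc1a was higher by 2.31 ± 0.29 (edgeR, adjusted p = 0.000646). Pparg, the receptor related to Ppara, was called higher in large intestine in all 3 classes, at 11.0, 10.8, 2.21, 137 and 29.2 CPM in absorptive cells, an order that Ppara did not share. Creb3l3 was called lower in large intestinal absorptive and crypt cells and Fabp1 in crypt and goblet cells. Ehhadh, a peroxisomal enzyme of beta-oxidation, had a smaller class difference in large intestine (edgeR, log2 -1.65 ± 0.28, adjusted p = 0.0300), lost without duodenum (adjusted p = 0.0998) or jejunum (0.115). Of 10 genes around pyruvate dehydrogenase, Pdk2, another kinase of the complex, was higher in absorptive than in crypt cells (edgeR, 2.08 ± 0.23, adjusted p = 0.000453) together with Pdp2, and Pdhx was lower; none was called between the sides of the intestine.

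Over the other cell types, each summed over its libraries, the members fell into distinct groups. Hadh was 689 CPM in absorptive, 357 in crypt and 169 in goblet cells, 153 in enteroendocrine and tuft cells, and 15.2 to 76.6 in Paneth, immune, stromal and endothelial cells. Slc16a1 was 111, 100.7 and 73.0 CPM in absorptive, crypt and goblet cells, 30.8 in enteroendocrine and tuft cells and 2.68 to 13.7 in the others. Ppara and Pdk4 stayed at or under 2.21 and 8.17 CPM outside the epithelium. Acads and Acadm were broader: T and innate lymphoid cells had 51.6 CPM of Acads, and endothelial cells 77.9 of Acadm.

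Over the 15 sums of 3 classes and 5 libraries, which share libraries, Pearson's r of log2(CPM + 5) was highest among the members for Ppara with Pdk4 (0.843), Slc16a1 with Cpt1a (0.837) and Hadh with Ppara (0.805), and lowest for Acsm3 with Pdk4 (-0.506). Of 12352 genes, the ones most like Slc16a1 were Myo19 (0.956), Vdac3 (0.952) and Pla2g3 (0.931), and those most like Acsm3 were Emp2 (0.951), Ppp2cb (0.95) and Htr4 (0.937). The gene most like Acads was Mettl26 (0.934), Acadm Ifngr2 (0.97), Hadh Acp6 (0.954), Bdh1 Bola3 (0.938), Cpt1a Nceh1 (0.909), Ppara Prpsap1 (0.939) and Pdk4 Me1 (0.937). These values describe 15 sums and carry no test.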

How the data were processed

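The data are 5 droplet libraries, each from a different stretch of mouse gut. Per the labels' protocols, propidium iodide-negative cells (5 µg/ml) were sorted and 10x Genomics libraries were sequenced as 150-bp pairs. Each deposited matrix gives whole UMI counts, not normalized, for every gene in every barcode. Cell Ranger 4.0.0, Seurat and mm10 are listed in the submitters' processing notes, whereas the matrix headers name cellranger 7.2.0. The spatial data of the design text were not analysed here.

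A barcode was kept if it had 300 genes or more and no more than 20% of its UMIs from mitochondrial genes (12255). Scrublet's own threshold marked 27 of them, so instead 333 top-scoring barcodes were dropped, a rate of 0.8% per 1000 deposited, leaving 11922 cells. The libraries shared 30 barcodes. Counts scaled to 10000 per cell gave 2000 variable genes, 30 components and 15 neighbours for Leiden clustering at resolution 1.0 (scanpy 1.11.5, igraph 0.11.9), without the 9 members and 70 pathway genes. Clusters were named from 18 marker lists with at least 3 markers raised 1.5-fold. The classes were formed from other genes of the same cells. The share of all genes called between classes was high, and the part of this choice in it was not tested. A count of 0 took a floor of 3 counts in the rule of size.

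Sums of classes with at least 20 cells were tested with edgeR 4.0.16 (quasi-likelihood, TMM factors, filterByExpr, library as a block, Benjamini-Hochberg adjustment over all genes at 0.05), checked on simulated data. Each standard error of an edgeR difference was back-calculated as the absolute log2 difference over the square root of the test's F statistic. Nothing says that the libraries come from separate animals, so p-values cover only the variation among the 5 libraries, which includes that between segments. Each of the 9 members is named, and from the lists the genes called in a comparison or with the most UMIs. The members and lists were chosen with earlier results of these data known. Some list genes are not reported here. Alternatives were other cell filters, doublets kept, resolutions 2.0 and 0.5, members kept for clustering, libraries clustered apart, unnamed ileal cells added, DESeq2 1.42.0, no gene filter, no block, mean fractions, TMM-scaled CPM, gaps of 4-fold and 1.5-fold, 200 UMIs, thinning to 2000 UMIs and each library left out; totals without TMM factors were added after seeing the data.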

Additional observations from a re-analysis of the deposited data

Results flagged for a closer look

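For 4 of the genes named, the difference between absorptive and crypt cells itself differed between large and small intestine by the edgeR interaction test over 5 libraries. They were 1 of 9 members, 1 of 5 tested transporters and receptors, 1 of 5 carnitine shuttle genes and 1 of 15 PPAR regulators and targets. In the other lists none of the 2, 13, 6 and 10 tested genes was called. Over all 11689 genes tested 4.53% were called. For Slc16a1 the difference was larger in large intestine, by 1.99 ± 0.30 on the log2 scale (adjusted p = 0.0261); CPM of absorptive cells lay below those of crypt cells in 3 of 3 small intestinal libraries and above them in 2 of 2 large intestinal ones. For Slc5a8 it was lower in large intestine, at -6.38 ± 0.78 (adjusted p = 0.0177), for Crat at -1.46 ± 0.26 (adjusted p = 0.0368) and for Ehhadh at -1.65 ± 0.28 (adjusted p = 0.0300). Each of the 4 calls was lost without duodenum and without jejunum.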

How the results depend on the processing

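With 1 library per segment and 58 rectal absorptive cells, counting error and the choice of these cells limit every statement on that class, and differences between segments have no replicate. The class comparisons were paired by library, which was a block in the fit.

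By the rule of size, 1 member was called in each class. In absorptive cells 2 were called without doublet removal, with each library clustered on its own or at a 1.5-fold gap, and 3 at resolution 0.5, where rectum had no such class; 1389 genes were called, 2221 at resolution 0.5, 597 at 4-fold and 2313 at 1.5-fold. In crypt cells 2 members were called with at least 1000 genes per cell, with TMM factors or at 1.5-fold, and 0 at 4-fold; 806 genes were called, 325 at 4-fold and 1330 at 1.5-fold. In goblet cells 2 members were called with every barcode, at 10% mitochondrial UMIs, with at least 1000 genes or at 1.5-fold; 574 genes were called, 208 at 4-fold and 1089 at 1.5-fold. Leaving out 1 library gave 1 to 5 members and 1379 to 3037 genes in absorptive cells, 1 to 3 and 781 to 1730 in crypt cells, and 1 to 2 and 653 to 1103 in goblet cells.

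Between absorptive and crypt cells 6737 of 11689 genes were called, and 3987 of 10727 at 10% mitochondrial UMIs. That fit held only the 3 small intestinal libraries. Of the members 4 were called, and 7 at resolution 2.0, where 7025 of 11769 genes were. Between goblet and absorptive cells 5071 of 11221 genes were called. At 10% mitochondrial UMIs 2261 of 9470 were, again from the 3 small intestinal libraries only. With each library clustered on its own 2406 of 11085 were, from 4 libraries without jejunum. Of the members 6 were called, and 3 without the library block, where 5050 of 11221 genes were. Leaving out 1 library gave 5231 to 7414 genes and 3 to 6 members, and 3133 to 5295 genes and 4 to 7 members.

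The interaction called 529 genes, but 813 with at least 1000 genes per cell, 1233 without doublet removal, 1532 at resolution 2.0, 309 at resolution 0.5, 1060 with members kept for clustering, 1907 with each library clustered on its own, 1082 by DESeq2 and 1322 without a gene filter. In place of 1 member the interaction called 2 with every barcode, at least 1000 genes, no gene filter or no TMM factors. It called 3 without doublet removal, at resolution 2.0, with members kept, with libraries clustered apart and by DESeq2. Leaving out 1 library gave 12 to 935 genes and 0 to 3 members. It was not run at 10% mitochondrial UMIs. The causes were not tested.

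Values that changed sign were not called in the main comparison. For absorptive over crypt cells Slc16a1 was -0.12 at 10% mitochondrial UMIs, a fit of the small intestinal libraries only. In the same comparison Bdh1 was 0.0492 at resolution 2.0 and 0.0196 with libraries clustered apart. For goblet over absorptive cells Acsm3 was -0.20 without doublet removal, -0.61 at resolution 2.0 and -0.85 with libraries clustered apart. In the interaction, in the same order of settings, Acsm3 was 0.73, 1.10 and 1.49. Acads was 0.0277 at resolution 0.5, 0.0017 with libraries clustered apart, and from -1.49 to 0.0258 when 1 library was left out. Bdh1 was 0.0947 without doublet removal, 0.30 at resolution 2.0, 0.31 at resolution 0.5, 0.016 with members kept, 0.37 with libraries clustered apart, 0.13 without TMM factors, and from -0.95 to 0.31 with 1 library left out. Ppara was 0.10 at resolution 0.5, 0.20 with libraries clustered apart, 0.0156 without TMM factors, and from -2.45 to 0.15 with 1 library left out. The interval of a member's share of cells lay above that of B cells in 83 of 135 comparisons at 1000 UMIs per cell and 131 without thinning.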
